A study of Mus musculus with 29 samples.

Results

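The 10 genes described here encode the IL6 family of cytokines and the JAK-STAT3 route behind it: the ligands Il6, Osm and Lif, the receptor chains Il6ra, Il6st and Osmr, the kinases Jak1 and Jak2, the transcription factor Stat3, and Socs3, an inhibitor that STAT3 induces. They were taken by symbol, 10 of the 24421 genes in the table, and all 10 were found and tested in every comparison. The libraries came from 29 female C57BL/6J mice, 5 to 6 weeks old at the start, which all received YTN16 cells IP. YTN16 is a mouse gastric cancer line that seeds the peritoneum of immunocompetent mice. RNA was taken from stripped peritoneum, with or without nodules, and the labels call it tumor tissue. Untreated mice received PBS and were taken at 3wk (n = 5) or 5wk (n = 5). Dual ICI mice received anti-PD1 (10 mg/kg) and anti-CTLA4 (5 mg/kg) IP and were taken at 3wk (n = 5, injected on days 5, 8 and 12) or at 5wk, with further injections on days 21 and 28. At 5wk there were also anti-PD1 (n = 5) and anti-CTLA4 (n = 4) monotherapy mice. The labels list 5 dual ICI mice at 5wk without their outcome. Mice 2, 3 and 4 were taken as dual ICI-cured and mice 1 and 5 as dual ICI-uncured, which assumes that the number in a library's title is the mouse number used in the study. The comparison of all 5 as labelled is therefore given as well. At 5wk the title numbers match those in the library names, whereas for dual ICI mice at 3wk they do not all match.

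IL6 binds IL6RA, OSM binds OSMR, and LIF binds LIFR, and each complex contains gp130, the shared signalling chain that Il6st encodes. JAK1 and JAK2 bound to gp130 phosphorylate STAT3, which enters the nucleus and switches on target genes, among them Socs3, whose protein then blocks gp130 and the kinases. In tumor tissue the ligands come largely from myeloid and stromal cells, and the route is known for inflammation and tumor growth. STAT3 is switched on by phosphorylation, so the level of its mRNA does not measure its activity.

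Library totals lay between 25989217 and 31219650 counts. The 20 gastric epithelium genes, which mark the implanted line, held 0.0677% to 0.446% of the counts in 25 libraries. They held 0.00129% to 0.00489% in the cured mice, with 4 to 8 of the 20 genes at 0. The 20 skeletal muscle genes of the body wall under the peritoneum held 22.7% to 24.3% in the cured mice and 4.29% to 21.7% in the same 25 libraries. The remaining library, anti-PD1 mouse 5, stood with the cured tissue, at 0.00347% gastric epithelium and 22.3% skeletal muscle. The study reports a cured mouse in the anti-PD1 group, and its text does not give that mouse's number. The outcome of mouse 5 is not labelled, so it stayed in its group. Results that rest on it are given with and without it, except for the genes most like a member. The tissue labelled as tumor was therefore nearly free of the line's markers in the cured mice. In bulk tissue, fewer cells of a type and less RNA per cell cannot be told apart.

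Levels are given as CPM, the counts of a gene scaled to a common library size, on library sizes scaled by TMM, a normalization that sets the bulk of genes level between libraries, and genes are compared with each other per kilobase of exon. Socs3 had the highest mean level over the 29 mice, 31.04 CPM per kb, in a range of 9.13 to 51.9. Jak1 (26.6 CPM per kb), Il6st (25.2), Stat3 (23.1) and Jak2 (17.6) followed. Osmr (4.23 CPM per kb), Il6ra (3.12) and Lif (2.41) were lower, and Osm (0.571) and Il6 (0.313) were lowest. The receptor chain gp130, the kinases and STAT3 were thus abundant in all 29 mice, whereas the ligands rested on few reads. Il6 had 1 to 79 counts, Osm 6 to 75 and Lif 66 to 816 per library, and each of the other 7 genes had at least 324.

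**Figure D1:**
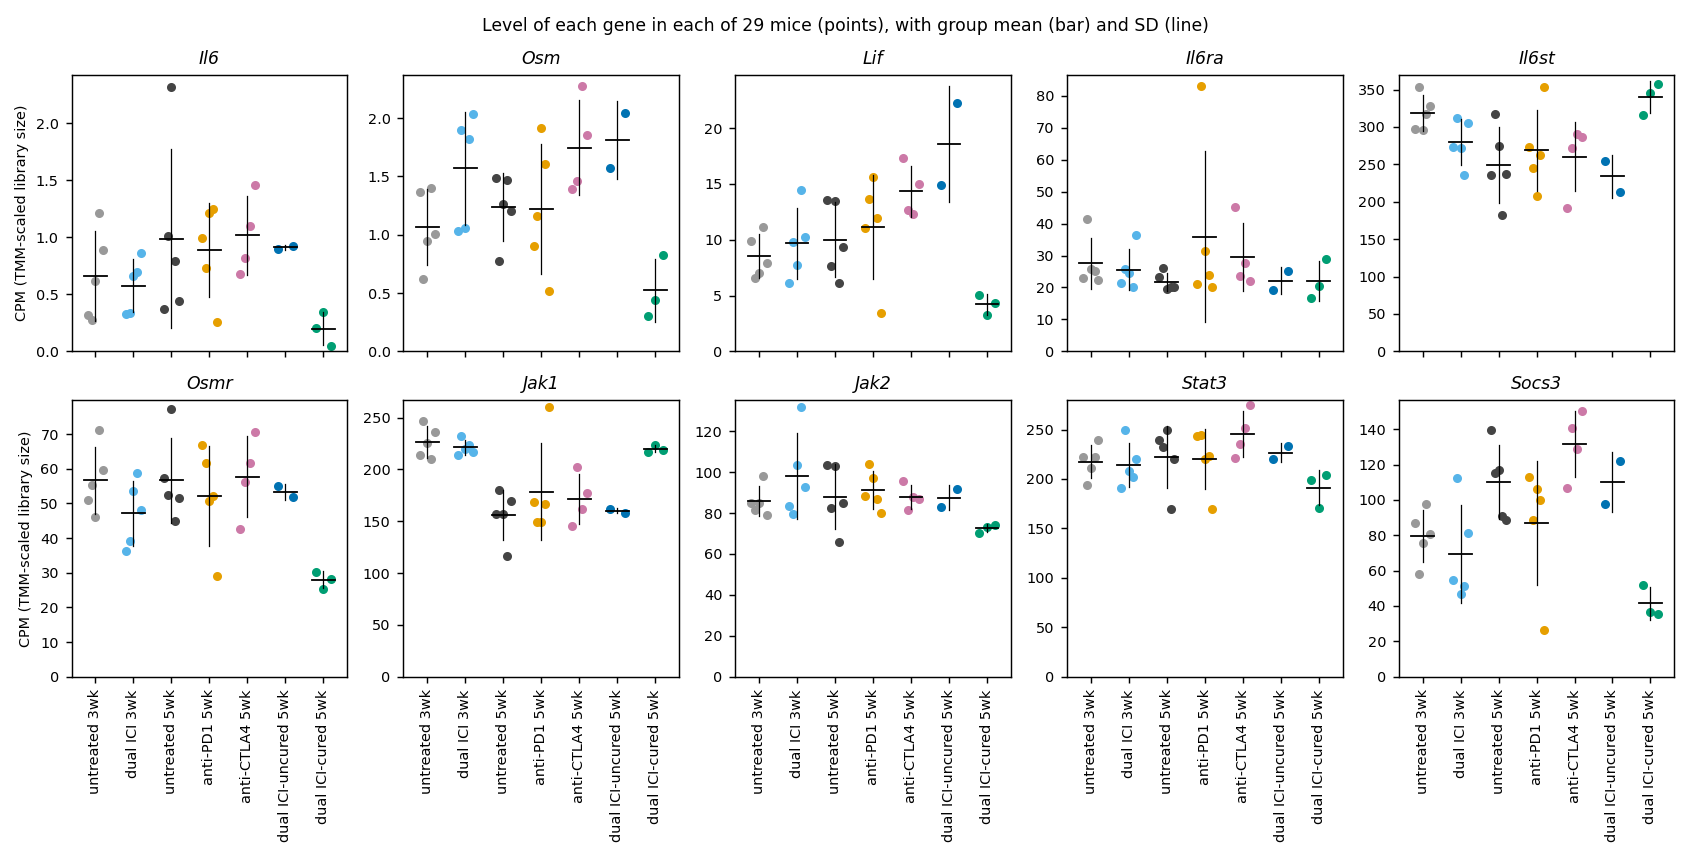
Level of the 10 genes in each of the 29 mice, in CPM on TMM-scaled library sizes (each vertical axis starts at 0), by group. Points are mice, bars group means and lines the SD. Lif and Osmr are lowest in the 3 cured mice and anti-PD1 mouse 5. Jak1 is high in those 4 mice and in all mice taken at 3wk, but on plain library totals the cured mice and anti-PD1 mouse 5 lie within the range of untreated mice at 5wk.

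Upstream sequence was read from RefSeq windows on GRCm38.p6, which matched 9 of the 10 genes. The stretches of Socs3, Il6 and Lif, 3 members that were lower in cured tissue, are shown up to the first exon base of the gene in GENCODE vM21. They were searched on both strands for the STAT element TTCNNNGAA and the AP-1 element TGANTCA, the site of FOS and JUN proteins, and matches are in capitals. The Socs3 stretch, chr11:117969452-117969616 on the minus strand, holds a STAT element and lies inside the annotated span of the gene but outside its exons. The Il6 stretch, chr5:30012864-30013113 on the plus strand, and the Lif stretch, chr11:4257318-4257556 on the plus strand, each hold an AP-1 element and no STAT element.
Socs3: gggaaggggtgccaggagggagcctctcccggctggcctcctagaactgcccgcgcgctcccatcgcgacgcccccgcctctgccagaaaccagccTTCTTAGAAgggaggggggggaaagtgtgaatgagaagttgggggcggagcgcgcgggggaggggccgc
Il6: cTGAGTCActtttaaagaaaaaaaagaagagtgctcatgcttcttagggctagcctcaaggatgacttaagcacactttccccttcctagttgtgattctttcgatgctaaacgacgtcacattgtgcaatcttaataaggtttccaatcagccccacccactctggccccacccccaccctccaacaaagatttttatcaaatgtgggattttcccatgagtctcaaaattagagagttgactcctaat
Lif: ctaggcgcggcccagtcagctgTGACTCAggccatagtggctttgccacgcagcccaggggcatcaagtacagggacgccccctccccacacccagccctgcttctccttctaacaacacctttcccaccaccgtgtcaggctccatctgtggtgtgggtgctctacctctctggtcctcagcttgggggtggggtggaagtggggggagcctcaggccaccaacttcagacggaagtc
Counted from the RefSeq start, the STAT element of Socs3 begins at -154, and the AP-1 elements begin at -249 in Il6 and -228 in Lif. Among the windows of 250 bases before all 32851 RefSeq starts, 7.02% held the STAT element and 6.75% the AP-1 element. Of the 9 member windows, 1 held the STAT element and 2 the AP-1 element. These are matches of letters and not measured binding.

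The comparison of dual ICI-cured with untreated mice at 5wk asked how the route differed once the disease had been cleared. Ligands, Osmr and Socs3 were lower in cured tissue. Of the 10 genes, 6 passed the edgeR test (adjusted p under 0.05), 5 lower and 1 higher. Among all 15816 genes tested, 44.7% passed, 26.7% lower and 18.0% higher, so calls were common in this comparison, and nothing particular to the 10 genes is read from their count. On plain library totals, without TMM, the median of all genes itself fell by 0.64 on the log2 scale and 13.8% of the calls were higher in place of 40.3%. The values below are on the TMM scale, and those on plain totals are given where they turn a direction in the comparisons with cured mice.

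Il6 (chr5:30013114-30019981), the founding ligand of the family, had 0.205, 0.341 and 0.0484 CPM in cured mice 2, 3 and 4, which is 4, 7 and 1 counts. Untreated mice 1 to 5 had 0.372, 1.02, 2.32, 0.796 and 0.441 CPM. The groups did not overlap, although the highest cured and the lowest untreated mouse lay close together. The log2 fold change was -2.28 ± 0.80 (SE, adjusted p = 0.0426), and the call was lost when any 1 of the cured mice 2, 3 and 4 or of the untreated mice 3 and 4 was left out (adjusted p of 0.0614 to 0.14). Osm (chr11:4236420-4241026), the oncostatin M ligand made mainly by myeloid and T cells, had 0.307, 0.439 and 0.823 CPM in cured mice. Untreated mice had 1.49, 0.773, 1.26, 1.47 and 1.20 CPM. Cured mouse 4 lay above untreated mouse 2, so the groups overlapped. The log2 fold change was -1.21 ± 0.40 (adjusted p = 0.0347), and the call was lost without each of 6 single mice (adjusted p of 0.0592 to 0.128), those other than cured mouse 4 and untreated mouse 2. Lif (chr11:4257557-4272514), the leukemia inhibitory factor, had 5.07, 3.22 and 4.31 CPM in cured mice. Untreated mice had 13.5, 7.64, 13.5, 6.09 and 9.34 CPM, all above the cured mice. The log2 fold change was -1.23 ± 0.31 (adjusted p = 0.0107), which became 0.0529 without cured mouse 3.

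Osmr (chr15:6813577-6874969), the OSM receptor chain of stromal and epithelial cells, had 30.3, 25.4 and 28.1 CPM in cured mice. Untreated mice had 57.2, 52.5, 77.3, 45.0 and 51.7 CPM. The lowest untreated mouse lay well above the highest cured mouse, at a log2 fold change of -1.003 ± 0.187 (adjusted p = 0.00269). Il6ra (chr3:89864059-89913196), the IL6-binding chain, had 16.6, 20.6 and 29.0 CPM in cured mice and 19.4 to 26.0 CPM in untreated mice. Its log2 fold change was 0.04 with a 95% interval of -0.41 to 0.49, and -0.53 on plain library totals (adjusted p = 0.0778). Il6st (chr13:112464070-112510086), which encodes gp130, had 316, 346 and 358 CPM in cured mice. Untreated mice had 235, 318, 275, 182 and 237 CPM, and untreated mouse 2 reached into the cured range. The log2 fold change was 0.46 ± 0.21 (adjusted p = 0.102). It passed with DESeq2 (0.48, adjusted p = 0.0467), with a fit of all 29 libraries (0.46, adjusted p = 0.0266) and without untreated mouse 2 (0.58, adjusted p = 0.0131), but became -0.10 on plain library totals.

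Jak1 (chr4:101152367-101265282), the kinase that the gp130 receptors depend on most, had 217, 224 and 219 CPM in cured mice. Untreated mice had 157, 180, 157, 117 and 169 CPM, all below the cured mice. The log2 fold change was 0.51 ± 0.18 (adjusted p = 0.0423), but on plain library totals it was -0.07 (adjusted p = 0.802), so the direction of Jak1 depended on the scaling. The call was also lost without each of 6 single mice, at adjusted p of 0.0667 to 0.129, with no filter on low counts (0.0594) and with at least 10 counts in every library (0.0567). Jak2 (chr19:29251828-29313080) had 70.3, 73.2 and 74.2 CPM in cured and 65.8 to 103.5 CPM in untreated mice, with a log2 fold change of -0.26 ± 0.17 (adjusted p = 0.24). Stat3 (chr11:100885098-100939540) had 199, 171 and 204 CPM in cured mice. Untreated mice had 239, 233, 250, 170 and 220 CPM, and untreated mouse 4 lay just below the lowest cured mouse. Its log2 fold change was -0.20 ± 0.18, with a 95% interval of -0.61 to 0.21 (adjusted p = 0.39). On plain library totals Stat3 was called lower at -0.79 and Jak2 at -0.86, which is -0.15 and -0.22 relative to the median of all genes on that scale.

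Socs3 (chr11:117966079-117970047), whose upstream stretch holds the STAT element shown above, had 52.0, 36.6 and 35.7 CPM in cured mice. Untreated mice had 139, 115, 117, 90.9 and 88.9 CPM. All 5 lay far above the cured mice, at a log2 fold change of -1.39 ± 0.21 (adjusted p = 0.00089). Over the 15 alternatives on scaled library sizes Socs3 lay between -1.578 and -1.295 and Osmr between -1.064 and -0.872, and on plain totals they were at -1.99 and -1.61. Both were called each time. On the TMM scale the groups overlapped for Stat3 and not for Socs3, and on plain totals they overlapped for neither, with Stat3 at 124.8 to 147.5 CPM in cured and 160.5 to 295.5 CPM in untreated mice. The difference between the 2 genes was not tested.

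Uncured and cured dual ICI mice at 5wk received the same antibodies and differed in outcome. Of the 10 genes, 8 passed the test, 6 higher and 2 lower in uncured tissue. Of all 15796 genes, 70.0% passed, 36.9% higher and 33.1% lower, so 8 of 10 is near that background. On plain totals 81.4% of the calls were higher in place of 52.7%, and the median of all genes was 0.84 above 0 on the log2 scale. The ligands were furthest apart. Lif had 14.9 and 22.3 CPM in uncured mice 1 and 5, against at most 5.07 CPM in cured mice, a log2 fold change of 2.12 ± 0.24 (adjusted p = 6.85e-05). Il6 had 0.899 and 0.927 CPM, or 28 and 34 counts, at 2.15 ± 0.58 (adjusted p = 0.00928). Osm had 1.57 and 2.05 CPM, at 1.75 ± 0.44 (adjusted p = 0.00637). With uncured mouse 5 left out, which leaves 1 uncured mouse whose spread is borrowed from the cured group, Il6 had an adjusted p of 0.0544 and Osm of 0.0573.

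Socs3 had 98.0 and 122 CPM in the uncured mice, a log2 fold change of 1.39 ± 0.17 over cured mice (adjusted p = 0.000104). Osmr had 55.01 and 51.76 CPM, at 0.91 ± 0.10 (adjusted p = 6.43e-05). Jak2 had 83.1 and 92.0 CPM, just above the cured mice, at 0.243 ± 0.095 (adjusted p = 0.0461), and was not called in a fit of all 29 libraries, without uncured mouse 5, or without any 1 of the cured mice. Il6st had 254 and 213 CPM, below all cured mice, at -0.57 ± 0.12 (adjusted p = 0.00227). Jak1 had 162 and 158 CPM, also below all cured mice, at -0.49 ± 0.09 (adjusted p = 0.00137). Both turned on plain library totals, to 0.21 for Il6st and 0.30 for Jak1 (adjusted p = 0.129 and 0.017), where they still lay below the median of all genes. Stat3 had 220 and 233 CPM, above all cured mice, but at 0.22 ± 0.11 it did not pass (adjusted p = 0.0968). It passed with upper-quartile normalization (0.28, adjusted p = 0.0415), with at least 10 counts in every library (0.29, adjusted p = 0.036) and on plain totals (1.00, adjusted p = 3.36e-05). Il6ra, at 19.2 and 25.1 CPM, lay inside the cured range, at -0.02 with a 95% interval of -0.55 to 0.51. On plain totals it was called at 0.76 (adjusted p = 0.0151), which is below the median of all genes there.

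**Figure D2:**
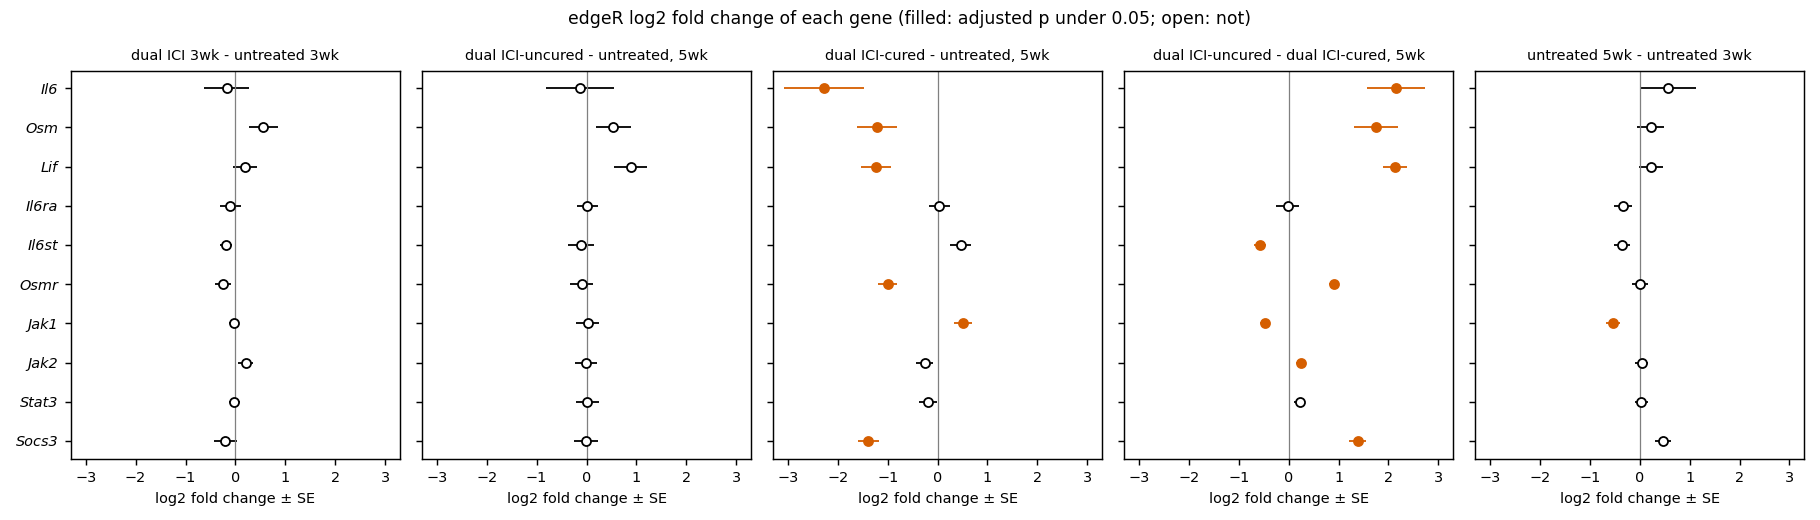
edgeR log2 fold changes of the 10 genes in 5 comparisons, with the SE as horizontal lines. Filled points had an adjusted p under 0.05 and open points did not. Filled points number 6 and 8 in the comparisons with cured mice, 1 (Jak1) between untreated mice at 5wk and 3wk, and none for dual ICI at 3wk or uncured against untreated mice. The directions of Jak1 and Il6st against cured mice turn on plain library totals.

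Those changes were seen beside large shifts of cell type markers. In cured against untreated tissue, 16 of 17 gastric epithelium genes tested were lower with a median log2 fold change of -6.58, and 7 of 7 neutrophil genes were lower with a median of -4.08. Of the T cell genes 6 of 9 and of the macrophage genes 1 of 10 were lower, and 7 of 20 skeletal muscle genes were higher. Of the mesothelium genes 4 of 8 were lower and 1 higher, while 2 of 10 fibroblast genes were higher and 1 lower, and 2 of 10 endothelial and 1 of 10 adipocyte genes were higher. On plain totals 8 of 9 T cell, 6 of 10 macrophage, 6 of 10 fibroblast, 4 of 8 mesothelium and 1 of 10 endothelial genes were lower, 8 of 20 skeletal muscle, 1 adipocyte and 1 endothelial gene were higher, and the counts for gastric epithelium and neutrophil genes were as before. The median of all genes was -0.06 on the TMM scale and -0.64 on plain totals. The summed neutrophil genes took 0.000514% to 0.000716% of counts in cured mice, with 2 or 3 of the 9 genes at 0, and 0.00289% to 0.0124% in untreated mice at 5wk. In uncured against cured tissue, 14 of 16 gastric epithelium, 7 of 7 neutrophil, 9 of 10 macrophage and 8 of 9 T cell genes were higher. All 20 skeletal muscle, all 10 adipocyte and 8 of 10 endothelial genes were lower. The fibroblast list was mixed, with 5 of 10 genes higher and 2 lower, as was the mesothelium list, with 3 of 8 higher and 1 lower. On plain totals 8 of 10 fibroblast and 4 of 8 mesothelium genes were higher and 0 lower, and 3 of 10 endothelial genes were higher and 1 lower. The part of tissue composition in the values of the 10 genes was not tested.

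**Figure D3:**
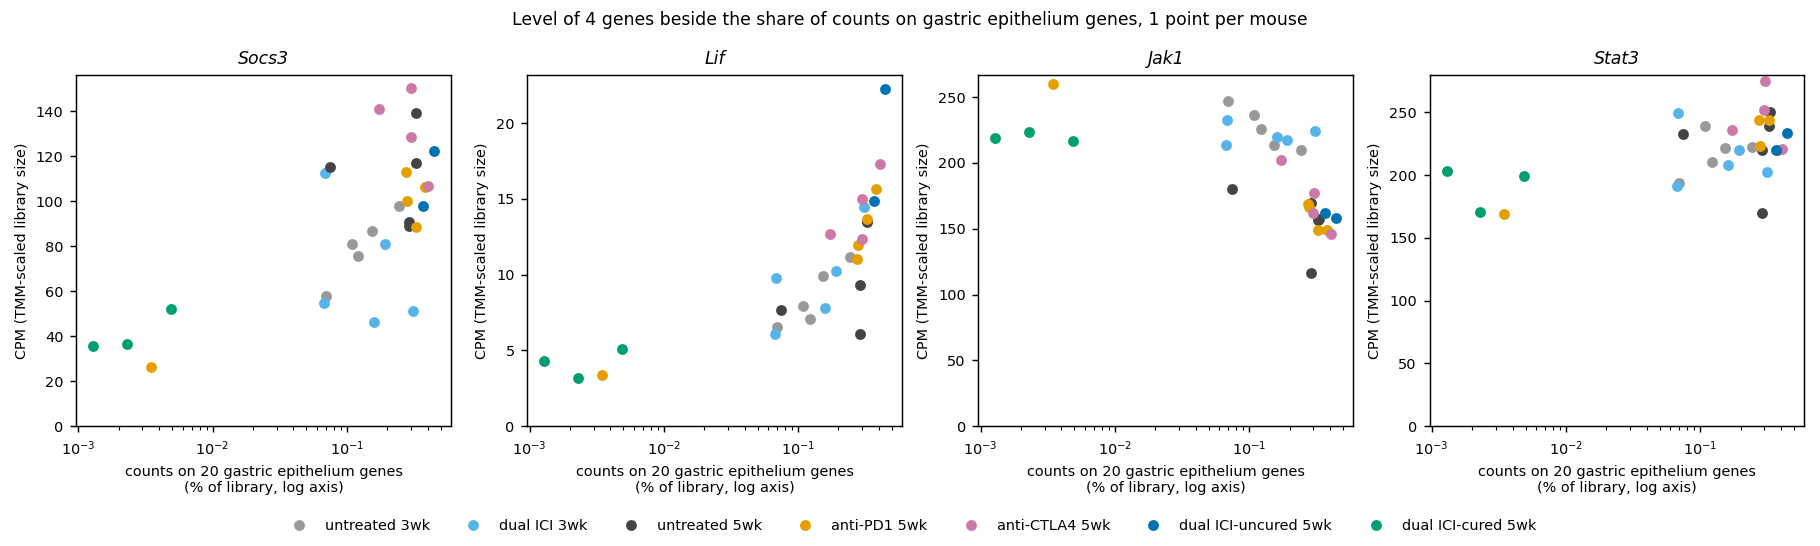
CPM of Socs3, Lif, Jak1 and Stat3 in each mouse (vertical axes from 0) beside the share of the library's counts on 20 gastric epithelium genes (log axis), coloured by group. The 3 cured mice and anti-PD1 mouse 5 form a separate cluster at 0.00129% to 0.00489%, where Lif is at most 5.07 CPM. Among the other 25 mice, at 0.0677% or more, Lif is at least 6.09 CPM and Socs3 runs from 46.6 to 150.1 CPM. The height of Jak1 in cured over untreated mice at 5wk is lost on plain library totals.

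Whether resistant tumors differed from untreated tumors in this route was addressed by the uncured mice. None of the 10 genes passed the test against untreated mice at 5wk, where 0.0% of 16156 genes passed (787 genes at an unadjusted p under 0.05, and 17 genes with DESeq2). At an unadjusted p under 0.05 there was 1 of the 10, Lif, and DESeq2 called 0. Lif had 14.9 and 22.3 CPM in the uncured mice, both above the highest untreated mouse (13.5 CPM), with a log2 fold change of 0.88 ± 0.33 (unadjusted p = 0.026, adjusted p = 0.734). Osm also lay above all untreated mice, at 0.54 ± 0.35 (adjusted p = 0.734). For the other 8 genes the ranges overlapped. The share of all genes without overlap was not counted, so nothing is read from the separation of Lif and Osm. Il6 was at -0.13 with a 95% interval of -1.68 to 1.43, which spans changes of several fold either way. Stat3 was at 0.02 (-0.49 to 0.53), Socs3 at -0.01 (-0.55 to 0.53), Jak1 at 0.02 (-0.49 to 0.53) and Jak2 at -0.02 (-0.52 to 0.48). The receptor chains Il6ra, Il6st and Osmr lay between -0.11 and 0.01. With 2 uncured mice these intervals leave room for changes of about 0.5 on the log2 scale in the abundant genes. In simulated counts for this comparison the fit called 3 of 200 genes changed by 2-fold and 161 of 200 changed by 4-fold. When all 5 dual ICI mice at 5wk were compared with untreated mice as labelled, 0 of 10 passed, as did 0.0% of all 15588 genes (1071 at an unadjusted p under 0.05, among them 1 of the 10, Osmr, and 46 genes but 0 of the 10 with DESeq2). Their Socs3 values ran from 35.7 to 122 CPM (mean 68.92 ± 39.15, SD, n = 5) and their Lif values from 3.22 to 22.3 CPM. A fit of all 29 libraries called 2693 genes there, where the main fit called 0. Osmr (-0.64, adjusted p = 0.0202) and Socs3 (-0.84, adjusted p = 0.0375) were among them, both lower. Calls were thus common in that fit, and nothing particular to the 2 genes is read from them.

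At 3wk, dual ICI treatment moved none of the 10 genes past the test, where 0.574% of 15503 genes passed. At an unadjusted p under 0.05 there were also 0 of the 10, beside 1658 of all 15503 genes. DESeq2 called 0 of the 10 as well, beside 502 genes in all. Osm was the furthest from 0. The dual ICI mice had 1.03, 1.90, 1.06, 1.82 and 2.04 CPM and the untreated mice 1.37, 0.619, 0.946, 1.40 and 1.00 CPM, an overlap, at 0.56 ± 0.30 (adjusted p = 0.549). Il6 was at -0.18 (95% interval -1.15 to 0.79). Stat3 was at -0.02 (-0.26 to 0.22) and Jak1 at -0.03 (-0.25 to 0.19), the tightest intervals among the 10 genes. Socs3 spread widely among treated mice, from 46.6 CPM in mouse 3 to 113 CPM in mouse 2, against 58.0 to 97.9 CPM in untreated mice. Jak2 was highest of all libraries in dual ICI mouse 4, at 132 CPM, while the other 4 treated mice had 79.7 to 104 CPM. In the same comparison 3 of 9 T cell genes were higher (median 1.43) and 0 of 6 neutrophil genes passed. On plain totals 0 of 9 T cell genes passed (median 1.46). An interaction term asked whether the dual ICI effect at 5wk (uncured) differed from that at 3wk. Only the treated mice at 5wk were chosen by outcome, which cannot be told apart from day here. It passed for 0 of 10 genes and for 0.0% of all 16542 genes (1050 at an unadjusted p under 0.05, 0 of them among the 10, and 1 gene with DESeq2). The interaction of Lif was 0.70 ± 0.42 (adjusted p = 0.707) and that of Stat3 0.05 ± 0.20 (adjusted p = 0.961).

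Uncured mice at 5wk were also set beside dual ICI mice at 3wk, where 0 of 10 genes and 5.31% of all 16135 genes passed. The uncured mice were chosen by outcome and the mice at 3wk were not. The groups also differ in day, number of injections and handling, and these cannot be told apart. Jak1 and Lif came nearest, the 2 with an unadjusted p under 0.05. Of all 16135 genes, 4640 had such a p, so nothing particular to the 10 genes is read from these 2. Jak1 had 162 and 158 CPM at 5wk and 214 to 232 CPM at 3wk, with no overlap, at -0.48 ± 0.16 (adjusted p = 0.0965). Lif had 14.9 and 22.3 CPM at 5wk and 6.09 to 14.5 CPM at 3wk, at 0.93 ± 0.32 (adjusted p = 0.102), and was called without dual ICI mouse 4 at 3wk (1.13, adjusted p = 0.018). Il6 also did not overlap, with at most 0.86 CPM at 3wk, at 0.63 ± 0.44 (adjusted p = 0.376). Here too the share of all genes without overlap was not counted. DESeq2 in place of edgeR called Jak1 (-0.47, adjusted p = 0.00116). That fit, and the one without dual ICI mouse 4 at 3wk, also called more of all genes than the main fit. Their counts are given in the closing section on processing.

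Between untreated mice at 3wk and 5wk, Jak1 was the 1 member that passed the test. All untreated mice at 3wk had 210 to 247 CPM and all at 5wk 117 to 180 CPM. The log2 fold change was -0.54 ± 0.14 (adjusted p = 0.0336), and 10.8% of 15604 genes passed. Leaving out any 1 of 7 of the 10 mice ended this call, at adjusted p of 0.0616 to 0.0854, as did plain library totals (-0.44, adjusted p = 0.123). Socs3 was at 0.47 ± 0.16 (adjusted p = 0.083), with 88.9 to 139 CPM at 5wk and 58.0 to 97.9 CPM at 3wk. Il6st was at -0.35 ± 0.16 (adjusted p = 0.168), and passed without untreated mouse 2 at 5wk (-0.47, adjusted p = 0.0281). Stat3 was at 0.03 ± 0.13 and Osmr at 0.00 ± 0.16. The groups were taken on different days, and day and handling cannot be told apart.

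Neither monotherapy moved any of the 10 genes past the test at 5wk. Against untreated mice 0.0% of 15640 genes passed for anti-PD1 and 0.0% of 15781 for anti-CTLA4 (205 and 128 at an unadjusted p under 0.05, 0 of them among the 10, and 0 with DESeq2). Il6ra had the largest log2 fold change with anti-PD1, 0.72 ± 0.38, and it rested on mouse 2. That mouse had 83.0 CPM, or 2718 counts, and the other 4 had 20.1 to 31.6 CPM. Without it the log2 fold change was 0.145. With anti-CTLA4, Lif was at 0.50 ± 0.25, Osm at 0.48 ± 0.27 and Il6ra at 0.42 ± 0.22, at adjusted p of 1.0 each. Lif had 17.3, 12.7, 12.3 and 15.0 CPM in the anti-CTLA4 mice, inside and above the untreated range of 6.09 to 13.5 CPM. Socs3 had 107 to 150 CPM with anti-CTLA4, and its highest single values lay in this group, together with the highest Stat3 value (275 CPM in mouse 4). On plain totals the highest Socs3 value was 167.2 CPM, in untreated mouse 1 at 5wk, against 164.6 CPM in anti-CTLA4 mouse 4. Anti-PD1 mouse 5 was lowest of its group in all 3 ligands, Il6ra, Osmr, Jak2, Stat3 and Socs3, and highest in Il6st and Jak1. Its Socs3 level was 26.4 CPM, the lowest of the 29 mice, also on plain library totals (18.25 CPM). Its Jak1 level was 260.0 CPM, the highest, but on plain totals it was 179.9 CPM, within the 176.7 to 184.5 CPM of the rest of its group, and its Il6st level was then the lowest of the group (244.7 CPM against 246.0 to 292.6 CPM). Without mouse 5, the anti-PD1 mean of Socs3 rose from 86.9 to 102 CPM and that of Lif from 11.1 to 13.1 CPM, and still none of the 10 passed.

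Ordered by group mean, the cured mice were lowest for Il6, Osm, Lif, Osmr, Jak2, Stat3 and Socs3, and highest for Il6st on this scale. For Lif, Osmr and Jak2 the cured range did not overlap the next group in that order, untreated mice at 3wk for Lif (mean 8.52 CPM) and Jak2 (85.7 CPM) and dual ICI mice at 3wk for Osmr (47.1 CPM). Every other pair of neighbours in the order of each of the 10 genes overlapped. The uncured mice had the highest group mean of Lif, 18.6 ± 5.2 CPM (SD, n = 2), and of Osm, 1.81 ± 0.33 CPM. The anti-CTLA4 mice had the highest mean of Il6, 1.02 ± 0.34 CPM (SD, n = 4), of Stat3, 246 ± 23 CPM, of Osmr, 57.8 ± 11.7 CPM, and of Socs3, 132 ± 19 CPM. On plain totals the uncured mice had the highest mean of Stat3 (274.7 CPM, against 269.5 CPM with anti-CTLA4) and of Osmr (64.65 against 63.04 CPM). Untreated mice at 3wk had the highest mean of Jak1, 226.5 ± 15.4 CPM (SD, n = 5). Group means of Stat3 ran from 191 to 246 CPM, and from 137.1 to 274.7 CPM on plain totals. The cured mean of Il6st, the highest on the TMM scale, was the lowest on plain totals (244.1 CPM).

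The rest of the pathway was followed by 5 lists of genes, whose counts stand beside these shares of all genes. In cured against untreated tissue 26.7% were called lower and 18.0% higher. In uncured against cured tissue 36.9% were called higher and 33.1% lower. Between untreated mice at 5wk and 3wk 10.8% passed, and between uncured mice and dual ICI mice at 3wk 5.31%. Calls of genes higher in cured tissue depended on the scaling, and values on plain library totals are given for those that were lost or turned. Of the other gp130 ligands, 3 of 6 tested were lower in cured than untreated tissue (median log2 fold change -0.82, all genes -0.06). Clcf1, a ligand that signals through CNTFR, LIFR and gp130, had 3.301 CPM in cured and 25.0 CPM in untreated mice, at -2.89 ± 0.27 (adjusted p = 0.000144). Il11, which signals through its own receptor and gp130, fell by 1.89 ± 0.41 (adjusted p = 0.00554) from 0.816 to 0.214 CPM. Against cured tissue, the uncured mice were higher in 3 of 6 ligands, Clcf1 at 3.06 and Il11 at 2.67, and Ctf1, cardiotrophin 1, was lower at -1.57 ± 0.15 (adjusted p = 2.39e-05). Uncured mice at 5wk also exceeded dual ICI mice at 3wk in Clcf1, at 1.63 ± 0.33 (adjusted p = 0.0383, and 0.0519 on plain totals). Clcf1 was also higher at 5wk than 3wk in untreated mice, at 0.91 ± 0.26 (adjusted p = 0.0437, and 0.093 on plain totals). Day, handling and, for the uncured mice, selection by outcome cannot be told apart in these differences.

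Of the other receptors of this family, 2 of 5 were higher and 0 lower in cured than untreated tissue (median 0.68), Il31ra, which pairs with OSMR, at 3.42 ± 0.43 (adjusted p = 0.000346) and Lifr, the LIF receptor, at 0.68 ± 0.16 (adjusted p = 0.00913). Lifr had 95.9 CPM in cured and 60.6 CPM in untreated mice. On plain totals it was at 0.12 (adjusted p = 0.603), and 1 receptor was called higher and 1 lower. Uncured mice were lower than cured mice in 4 of 5, with Il31ra at -2.96 and Cntfr at -1.77, and Il27ra was higher at 1.004. On plain totals 2 were lower and 1 higher. Lifr also fell with time in untreated mice, by 0.49 ± 0.13 (adjusted p = 0.039, and 0.0938 on plain totals). Among the other JAKs and STATs, 2 of 8 were lower in cured tissue, near the share of all genes (26.7%). These were Stat4, which IL12 activates, at -1.28 and Jak3, the kinase of the common gamma chain receptors, at -0.64. Uncured mice were higher than cured mice in 6 of 8, led by Stat4 at 1.59 and Jak3 at 0.96, and 2 were lower, Stat5b at -1.89 and Stat5a at -0.26, the latter turning to 0.52 on plain totals (adjusted p = 0.00136). Stat2, a factor of interferon signalling, fell with time in untreated mice by 0.53 ± 0.14 (adjusted p = 0.0364, and 0.258 on plain totals).

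Of 15 other inhibitors, 2 were higher and 4 lower in cured than untreated tissue (median 0.16), shares no higher than those of all genes (18.0% and 26.7%), and 1 was higher and 5 lower on plain totals. Socs7 rose by 1.21 and Ptpn11, the phosphatase SHP2, by 0.52, though Ptpn11 turned to -0.05 on plain totals (adjusted p = 0.822). Ptpn6, the phosphatase SHP1 of blood cells, was at -0.98 and Socs1 at -0.80. Between uncured and cured mice 5 were higher and 5 lower, Ptpn6 at 1.55 and Socs1 at 1.21 among the first, and Socs7 at -1.39 and Pias2 at -0.84 among the second. On plain totals 11 were higher and 1 lower, and Pias2 was at -0.06 (adjusted p = 0.632).

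Of 28 genes that STAT3 is known to induce, 23 were tested against cured tissue. In cured against untreated mice 15 were lower and 2 higher (median -1.43, all genes -0.06). Lcn2, the iron-binding lipocalin of neutrophils and inflamed epithelium, had 1.14 CPM in cured and 34.2 CPM in untreated mice, at -4.88 ± 0.43 (adjusted p = 0.00013), and Timp1, a metalloproteinase inhibitor, had 2.95 and 57.0 CPM, at -4.25 ± 0.37 (adjusted p = 0.000128). Bcl6, a transcriptional repressor, was higher at 1.14 ± 0.16 (adjusted p = 0.000519), as was Vegfa, the vascular growth factor, at 0.94 ± 0.22 (adjusted p = 0.008). On plain totals 18 were lower and 0 higher, with Bcl6 at 0.55 and Vegfa at 0.40 (adjusted p = 0.0574 and 0.0978). In uncured compared with cured mice 16 were higher and 4 lower (median 1.23), with Timp1 at 4.47 and Lcn2 at 4.28, and with Bcl6 at -1.06 and Vegfa at -1.01, which became 20 higher and 0 lower on plain totals. In uncured against untreated mice at 5wk 0 of 24 passed (median -0.12, all genes -0.01), and at 3wk 0 of 23 (median 0.03, all genes 0.02). No gene of the other 4 lists passed in those comparisons either, and in the first of them 0 of all 16156 genes passed. In that comparison the median was 0.60 for the other ligands (5 of 6 genes above 0) and 0.31 for the other JAKs and STATs (6 of 8). For the other inhibitors it was 0.06 (11 of 15) and for the other receptors -0.21 (2 of 5). With time in untreated mice, 8 of 23 STAT3-induced genes were higher and 2 lower (median 0.39), and on plain totals 6 were higher and 1 lower. Saa3 and Mt2, an acute phase protein and a metallothionein, rose by 2.503 ± 0.483 and 2.267 ± 0.359 (adjusted p = 0.0123 and 0.0062), and Bcl6 and Vegfa fell by 0.73 and 0.72 (on plain totals adjusted p = 0.07 for Bcl6). Between the same untreated groups 2 of 6 neutrophil and 2 of 17 gastric epithelium genes were called higher, with medians of 0.62 and 0.76 (all genes 0.02). Of the fibroblast genes 6 of 10 were called lower (median -0.83). The part of these shifts in the STAT3-induced genes was not tested. From dual ICI mice at 3wk to uncured mice at 5wk, 3 of 24 were higher, among them Lcn2 at 2.02 and Saa3 at 1.44 (adjusted p = 0.0121 and 0.028). Lcn2 is also made in large amounts by neutrophils and epithelium. In that last comparison 0 of 7 neutrophil and 2 of 17 gastric epithelium genes were called higher. Above 0 were 7 of 7 and 16 of 17, with medians of 0.87 and 1.12 (all genes -0.03). The part of those shifts in the Lcn2 and Saa3 values was not tested. Day, handling and selection by outcome cannot be told apart in that comparison.

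Within groups, the 10 genes varied together only in part. Log2 CPM was centred on each group's mean, and Pearson's r was taken over the 29 mice as a description, since the mice share tissue composition and depth. The 45 pairs had r between -0.55 and 0.77 (median 0.23), and 30 were above 0. Il6st and Jak1 had r = 0.77, and Stat3 and Socs3 had r = 0.76. Without anti-PD1 mouse 5 these were 0.72 and 0.65. Lif and Socs3 went from 0.72 to 0.39 without that mouse, and Jak1 and Socs3 from -0.45 to 0.17, so that mouse set the sign of the latter. Lif and Jak2 went from 0.68 to 0.75. Il6 and Stat3 had r = 0.33, and 0.13 without it.

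**Figure D4:**
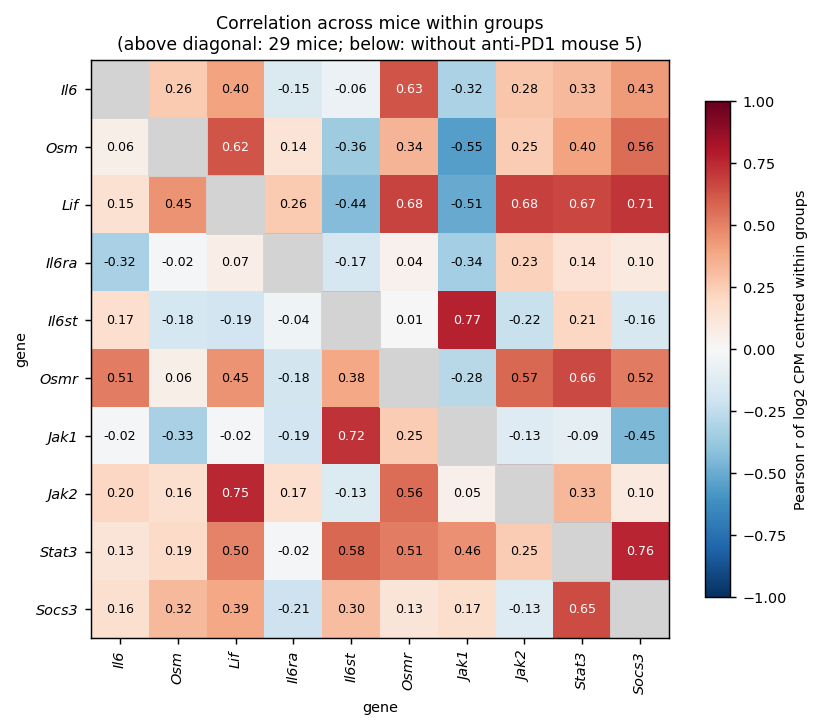
Pearson's r between each pair of the 10 genes, of log2 CPM centred within the 7 groups, above the diagonal over 29 mice and below it without anti-PD1 mouse 5. Il6st with Jak1 (0.77) and Stat3 with Socs3 (0.76) are the highest pairs, and Jak1 with Socs3 changes sign without that mouse.

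Against the marker scores, centred in the same way, Lif had r = 0.83 with neutrophil genes and -0.79 with skeletal muscle genes (0.64 and -0.71 without anti-PD1 mouse 5). Its r with gastric epithelium genes was 0.81, and 0.57 without that mouse. Osm had r = 0.71 with neutrophil genes and 0.61 with macrophage genes (0.58 and 0.54). Jak2 had r = -0.78 with adipocyte genes (-0.77) and Il6st 0.71 with endothelial genes (0.64). Stat3 and Socs3 were at 0.47 and 0.65 with gastric epithelium genes, which became 0.07 and 0.06 without that mouse. Over all genes with a mean of at least 1 CPM, the patterns most like Socs3 were those of Sbno2 (r = 0.93), Lrfn4 (0.87), Il4ra (0.84), Bcl3 (0.84) and Mxd3 (0.84). Those most like Stat3 were Piezo1 (0.81), Rpusd2 (0.79), Sbno2 (0.79), Socs3 (0.76) and Pcdhb16 (0.75). Il6 was closest to Cxcl1, a neutrophil-attracting chemokine (0.74), Artn (0.74), Serpinb7 (0.73), Adamts9 (0.72) and Ptgs2, the inducible cyclooxygenase (0.72). Osm was closest to Hmgb3 (0.85), Shmt1 (0.82), Chtf18 (0.81), Hnrnpl (0.802) and Nfkbid (0.795). These closest genes were sought over all 29 mice only, so how far they rest on anti-PD1 mouse 5 was not tested.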

How the data were processed

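RNA was extracted from stripped peritoneum of 29 mice and sequenced as paired-end reads of 150 bp. The authors aligned reads to mm10 and deposited a table of unnormalized read counts. The study's methods name STAR and HTSeq, and the submitters' processing notes name STAR 2.7.0f and featureCounts 1.6.4. Strand setting and annotation are not given in the sources used here, so reads of Stat3 and Stat5a (0.76% of Stat3 exon length shared on opposite strands), Jak1 and Raver2 (0.06%) and Il6ra and Gm42809 (2.8%, not in the table) could be shared. Each library is from 1 mouse.

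The 10 members were found by symbol. Positions came from GENCODE vM21 (GRCm38), which held 23376 of 24421 symbols (95.7%). Comparisons used edgeR 4.0.16 in R 4.3.3 (TMM, filterByExpr, glmQLFit, glmQLFTest, two-sided, Benjamini-Hochberg over all genes tested, adjusted p under 0.05), with only the groups compared in a fit. SE values are the log2 fold change over the root of its F value. CPM used TMM-scaled sizes over 29 libraries, and log2 CPM a prior count of 2. A list was described by its counts and median. Genes of the 5 pathway lists were named when they were the 2 with the largest change per direction among those called, and genes like Il6, Osm, Stat3 and Socs3 were the 5 with the highest r. Other lists were 9 sets of cell type markers. The members and lists were chosen with earlier results of these data known. Fits were tested on simulated counts with 200 genes changed by 2-fold or by 4-fold. For dual ICI at 3wk 130 and 191 of these were called, and for uncured against untreated mice 3 and 161. For cured against untreated mice 16 and 181 were called, and for uncured against cured mice 163 and 193. Alternatives were DESeq2 1.42.0, upper-quartile normalization, no filter, at least 10 counts in every library, a fit of all 29 libraries, skeletal muscle genes left out, a replicate block and each mouse left out. Plain library totals, and leaving out each uncured mouse where that leaves 1, were chosen after seeing the data. Other experiments of the study were not analysed here. Some genes of the pathway lists are not reported here.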

Additional observations from a re-analysis of the deposited data

Results flagged for a closer look

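In the 5 groups of 4 or 5 mice, 50 sets of values were examined for a mouse far from the others, and 4 had a gap to the nearest other mouse over Dixon's 95% critical value, where chance gives about 1 in 20. Il6ra in anti-PD1 mouse 2 was high, at 83.0 CPM with the next mouse at 31.6 CPM. Il6ra in untreated mouse 2 at 3wk was high, at 41.5 CPM with the next at 25.8 CPM. Jak1 in anti-PD1 mouse 5 was high, at 260.0 CPM with the next at 168.5 CPM. On plain library totals the same mouse had 179.9 CPM, within the 176.7 to 184.5 CPM of its group, so this height was present on the TMM scale only. Socs3 in the same mouse was low, at 26.4 CPM with the next at 88.6 CPM. That mouse had 0.00347% of its counts on gastric epithelium genes, and the part of this in its Jak1 and Socs3 values was not tested.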

How the results depend on the processing

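The 10 genes gave 100 log2 fold changes and 1709 values under alternatives. Among those, 38 lost a call, 14 gained one and 4 turned direction, the 4 all on plain library totals: Jak1 in cured against untreated mice (-0.068), and Il6st (0.214), Il6ra (0.759) and Jak1 (0.298) in uncured against cured mice. A further 131 changes of sign were in values not called on either side. Of 70 group means of CPM, 18 moved by over 1 SD on plain totals.

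In cured against untreated mice the count of members called went from 6 to 3 with at least 10 counts in every library (8 tested, without Il6 and Osm) and lay between 2 (without cured mouse 3) and 7 (without untreated mouse 2) when 1 mouse was left out. Genes called lay between 4491 and 9388. In uncured against cured mice members called lay between 5 and 8 and genes called between 9668 and 10883. For untreated mice at 5wk against 3wk, members called lay between 0 and 2 and genes called between 654 (without untreated mouse 5 at 3wk) and 4915 (without untreated mouse 2 at 5wk), DESeq2 called 3168 genes, and plain totals 0 members. For uncured mice against dual ICI mice at 3wk, members called lay between 0 and 1 and genes called between 0 (without uncured mouse 1) and 4006 (without dual ICI mouse 4), DESeq2 called 1 member and 3069 genes, and the fit of all 29 libraries 237 genes. For dual ICI at 3wk, genes called lay between 6 and 119, with 502 by DESeq2 and 15 on plain totals. For all dual ICI mice at 5wk as labelled, the fit of all 29 libraries called 2 members and 2693 genes, and DESeq2 46 genes. DESeq2 called 17 genes for uncured against untreated mice and 1 for the interaction. The cause of these differences was not tested. On plain totals the share of calls that were higher moved from 82.0% to 93.3% for dual ICI at 3wk and from 57.4% to 69.7% for uncured mice against dual ICI mice at 3wk. For anti-PD1 and for anti-CTLA4 against untreated mice 0 members and 0 genes were called under every alternative.

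Numbers of the mice did not pair the groups: of the 3 cured and untreated pairs, 1 had a correlation of deviations over 0.1, of the 5 pairs of dual ICI and untreated mice at 3wk, 2 did, and of the 4 pairs of anti-CTLA4 and untreated mice, 3 did (the fourth at -0.056). In no comparison were all pairs over 0.1. The title numbers of the dual ICI mice at 3wk do not all match those in the library names. Pairs and blocks with that group therefore join mice by title number only. With the replicate block, 3 members and 4016 genes were called in cured against untreated mice (Il6, Osmr and Socs3 among the members), 209 genes for dual ICI at 3wk, and 1 member (Lif) and 3192 genes for uncured mice against dual ICI mice at 3wk. Uncured and cured mice share 0 numbers, so no block could be fitted. The depth limits Il6 and Osm, which had 1 to 79 counts per library.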
